A study of Homo sapiens with 44 samples.

Results

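Immediate early and short-lived mRNAs are represented here by 10 genes: FOS, FOSB, JUN, JUNB, JUND, EGR1, IER2, IER5, MCL1 and DUSP1. They were taken by symbol from the deposited count tables, which held all 10 of them among 19923 protein-coding gene names. Immediate early genes are switched on within minutes of a growth factor, depolarisation or stress signal, without new protein synthesis, by factors that already sit at their promoters. Their mRNAs are short-lived, in many cases through AU-rich elements in the 3′ untranslated region that recruit deadenylases. N6-methyladenosine (m6A), the methyl mark written on mRNA by the METTL3 complex, is another signal known to shorten mRNA life. FOS, FOSB, JUN, JUNB and JUND are subunits of the dimeric transcription factor AP-1, and EGR1 is a zinc finger transcription factor. IER2 and IER5 are small nuclear regulators, DUSP1 is a phosphatase that switches off MAP kinases, and MCL1 is a survival protein of the BCL2 family whose mRNA and protein turn over fast.

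The study asked what inhibition of METTL3 with the small molecule STM2457 does to RNA and to m6A in human neuroblastoma cells. Kelly and NGP are established neuroblastoma lines, labelled WT and MYCN-amplified. Kelly cells were kept with 8 µM STM2457 or with DMSO for 1 day or for 6 days, and NGP cells for 6 days. In the 4th experiment Kelly cells grew as tumours under the skin of male and female nude mice, which lack T cells and supply the tumour's stroma and vessels. These mice received 50 mg/kg STM2457 or vehicle into the peritoneum each day for 14 days, and the vehicle tumours are called DMSO here as in their titles. Every group has 2 kinds of library. Input libraries are RNA-seq of sonicated poly(A) RNA, and RIP libraries hold what an m6A antibody captured from that RNA. Of the 44 libraries, 3 belong to each culture group and 2 to each xenograft group. Nothing in the labels says that replicates came from separate cultures or mice, so p-values measure the spread between these libraries, which may be technical.

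Input totals ran from 24.07 to 26.56 M assigned fragments in Kelly at 1 day, from 5.77 to 31.49 M in Kelly at 6 days, from 5.49 to 11.6 M in NGP and from 2.14 to 7.27 M in the xenografts. In the xenografts the 2 DMSO inputs (4.3 and 7.27 M) were deeper than the 2 STM2457 inputs (3.19 and 2.14 M). The neuroblastoma markers HAND2 and MYCN had counts in all 22 inputs. Among markers of fibroblasts, endothelium, leukocytes and erythrocytes, COL1A2, DCN, LUM, CD3E and HBA1 were at 0 in all 4 xenograft inputs. Others were present. VWF lay between 17.2 and 17.4 CPM in the DMSO tumours and between 11.2 and 15.4 CPM in the treated ones. In Kelly DMSO inputs at 6 days it lay between 1.01 and 2.98 CPM. PTPRC (up to 0.769 CPM), PECAM1 (up to 0.559) and HBB (0.384 and 0.559) had counts in treated tumours only. The markers' summed level was 147 and 187 CPM (counts scaled by library size) in the DMSO tumours and 227 and 149.9 CPM in the treated ones, so the groups overlapped. PDGFRB and COL1A1, which cultured Kelly cells also express, made up most of it. The labels do not say how mouse fragments were handled. In bulk libraries such as these, fewer cells with a transcript and less of it per cell cannot be told apart.

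The heptamer TATTTAT, a core of AU-rich elements, was present in the 3′ untranslated region of 7 of the 10 (FOS, FOSB, JUN, JUND, IER5, MCL1 and DUSP1), against 31.43% of 18999 genes with a canonical coding transcript. IER5 held 4 copies, MCL1 and DUSP1 held 3 each, and FOS held 2. JUN, JUNB, JUND and IER5 are single-exon transcripts, against 5.42% of genes. The following 25-base stretches show the TATTTAT nearest the stop codon in capitals for members of different roles, in GRCh38 coordinates and read from the GENCODE 44 transcripts.

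FOS, chr14:75282062-75282086, plus strand: tttttaattTATTTATtaagatgga
JUN, chr1:58780821-58780845, minus strand: gcttatgaaTATTTATaacagcatt
IER5, chr1:181091982-181092006, plus strand: ataataatgTATTTATagaattaaa
MCL1, chr1:150575809-150575833, minus strand: ctctacagaTATTTATatcaattcc
DUSP1, chr5:172768645-172768669, minus strand: gctggtcctTATTTATttaacttca

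GGACT, a frequent core of m6A sites, is shown because the RIP libraries were made with an m6A antibody. It occurred 7 times in the MCL1 transcript, 6 times each in IER2 and IER5, 5 times each in FOSB and JUN, 4 times in DUSP1, 3 in FOS, 2 in JUND, 1 in JUNB and 0 in EGR1. The median over genes was 0.923 GGACT per kb, with JUNB (0.546) and EGR1 (0) below it and the other members above. DRACH is the wider m6A motif, where D is not C, R is A or G and H is not G. Its median over genes was 18.959 per kb. FOS (21.388), JUN (22.72) and MCL1 (21.013) lay above that median and the other members below, down to 8.813 in JUND. The GGACT nearest the stop codon is in capitals in the stretches below, in GRCh38 and GENCODE 44, for the 7 members enriched by the antibody in Kelly cells at 1 day. It lay in the 3′ untranslated region, between 36 bases (DUSP1) and 157 bases (IER2) past the stop codon, except in IER5, where it lay in the coding region 150 bases before the end of the stop codon. A match shows the letters and not a methylated site, since the deposited tables count whole genes.

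JUN, chr1:58781929-58781953, minus strand: tatccaagttGGACTgggttgcgtc
JUNB, chr19:12792929-12792953, plus strand: aaaccacactGGACTccggccctcc
JUND, chr19:18280353-18280377, minus strand: tgggcgccccGGACTtggagagggt
IER2, chr19:13154006-13154030, plus strand: gcccggagagGGACTctgtccccgg
IER5, chr1:181089727-181089751, plus strand: cagtttctcgGGACTcctacggaaa
MCL1, chr1:150577292-150577316, minus strand: ttatgcagttGGACTccaagctgta
DUSP1, chr5:172768711-172768735, minus strand: catcccattgGGACTccatgctcct

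Promoters are shown because FOS, FOSB, JUN and EGR1 had the largest differences between treated and control tumours, and because JUND and DUSP1 carry the full cyclic AMP response element. Each runs from 250 bases before to 50 bases after the RefSeq start (GRCh38.p14 promoter table, in which 9 of the 10 members had an entry, MCL1 being the exception). Capitals mark, on either strand, the core of that element, TGACG, which was counted also where it lies inside the full element, and the CArG box, the binding sequence of serum response factor. The full element is TGACGTCA.

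FOS, chr14:75278578-75278877, plus strand: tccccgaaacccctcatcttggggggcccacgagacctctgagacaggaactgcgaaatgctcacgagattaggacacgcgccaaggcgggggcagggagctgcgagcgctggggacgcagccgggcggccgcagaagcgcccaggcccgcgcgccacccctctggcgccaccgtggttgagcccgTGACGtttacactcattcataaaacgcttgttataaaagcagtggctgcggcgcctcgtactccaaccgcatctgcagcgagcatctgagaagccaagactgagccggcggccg
FOSB, chr19:45467746-45468045, plus strand: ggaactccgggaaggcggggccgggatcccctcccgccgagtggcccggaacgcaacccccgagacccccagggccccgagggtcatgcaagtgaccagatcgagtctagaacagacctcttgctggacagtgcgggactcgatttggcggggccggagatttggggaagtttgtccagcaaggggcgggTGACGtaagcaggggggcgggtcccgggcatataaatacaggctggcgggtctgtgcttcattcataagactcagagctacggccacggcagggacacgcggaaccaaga
JUN, chr1:58783998-58784297, minus strand: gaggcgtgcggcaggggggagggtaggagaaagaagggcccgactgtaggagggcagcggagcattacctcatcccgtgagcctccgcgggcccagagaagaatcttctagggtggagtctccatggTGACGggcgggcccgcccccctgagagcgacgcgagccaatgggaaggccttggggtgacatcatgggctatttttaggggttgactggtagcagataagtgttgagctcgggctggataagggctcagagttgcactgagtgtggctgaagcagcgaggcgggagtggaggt
EGR1, chr5:138465229-138465528, plus strand: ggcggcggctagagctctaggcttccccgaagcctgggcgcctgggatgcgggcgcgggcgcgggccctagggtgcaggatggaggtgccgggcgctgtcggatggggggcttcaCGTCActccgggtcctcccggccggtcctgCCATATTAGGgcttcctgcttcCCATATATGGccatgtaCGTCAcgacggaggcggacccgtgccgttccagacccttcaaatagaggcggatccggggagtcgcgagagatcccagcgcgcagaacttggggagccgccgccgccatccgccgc
JUND, chr19:18281573-18281872, minus strand: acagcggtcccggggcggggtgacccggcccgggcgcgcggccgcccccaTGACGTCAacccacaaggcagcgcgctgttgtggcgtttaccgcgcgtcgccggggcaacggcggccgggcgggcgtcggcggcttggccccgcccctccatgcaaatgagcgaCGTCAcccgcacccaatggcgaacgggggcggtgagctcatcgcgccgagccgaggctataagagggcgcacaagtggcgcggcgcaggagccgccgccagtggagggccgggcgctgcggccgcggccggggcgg
DUSP1, chr5:172771146-172771445, minus strand: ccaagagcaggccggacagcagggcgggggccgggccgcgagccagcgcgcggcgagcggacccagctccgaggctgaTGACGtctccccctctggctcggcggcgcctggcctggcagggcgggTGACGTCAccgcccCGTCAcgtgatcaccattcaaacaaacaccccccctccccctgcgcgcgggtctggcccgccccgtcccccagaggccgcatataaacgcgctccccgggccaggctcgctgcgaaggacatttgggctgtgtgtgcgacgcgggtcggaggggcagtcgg

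The core TGACG was found in 8 of the 9 promoters, against 25.01% of 27305 promoters of the same length. TGACGTCA was in JUND and DUSP1, against 1.98%. Within the 300 bases searched, the CArG box matched in EGR1 only, with 2 copies 105 and 83 bases before the start, against 1.29%. Only exact matches were counted, and sites farther upstream were not searched. TATAAA was in FOS, FOSB, JUNB and DUSP1, against 11.95%, and the AP-1 sequence TGANTCA in 0 of the 9, against 7.76%.

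Control levels differed widely among the members. On the RPKM scale, which divides by library size and by exon length, JUND was the most abundant member in Kelly at 6 days with 142 RPKM, followed by JUN with 37.0, MCL1 with 28.2, IER2 with 27.0, IER5 with 26.0, JUNB with 20.3 and DUSP1 with 6.27. FOS (0.517 RPKM), EGR1 (0.375) and FOSB (0.0543) were near the limit of detection there. JUND also led in NGP at 90.4 RPKM and in the control tumours at 187 RPKM, while in Kelly at 1 day MCL1 led with 35.6 RPKM and JUND followed with 16.8. FOSB had between 0 and 15 counts in every cultured input and was filtered out of those input tests, so 9 members were tested in the cultures and 10 in the xenograft.

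**Figure D1:**
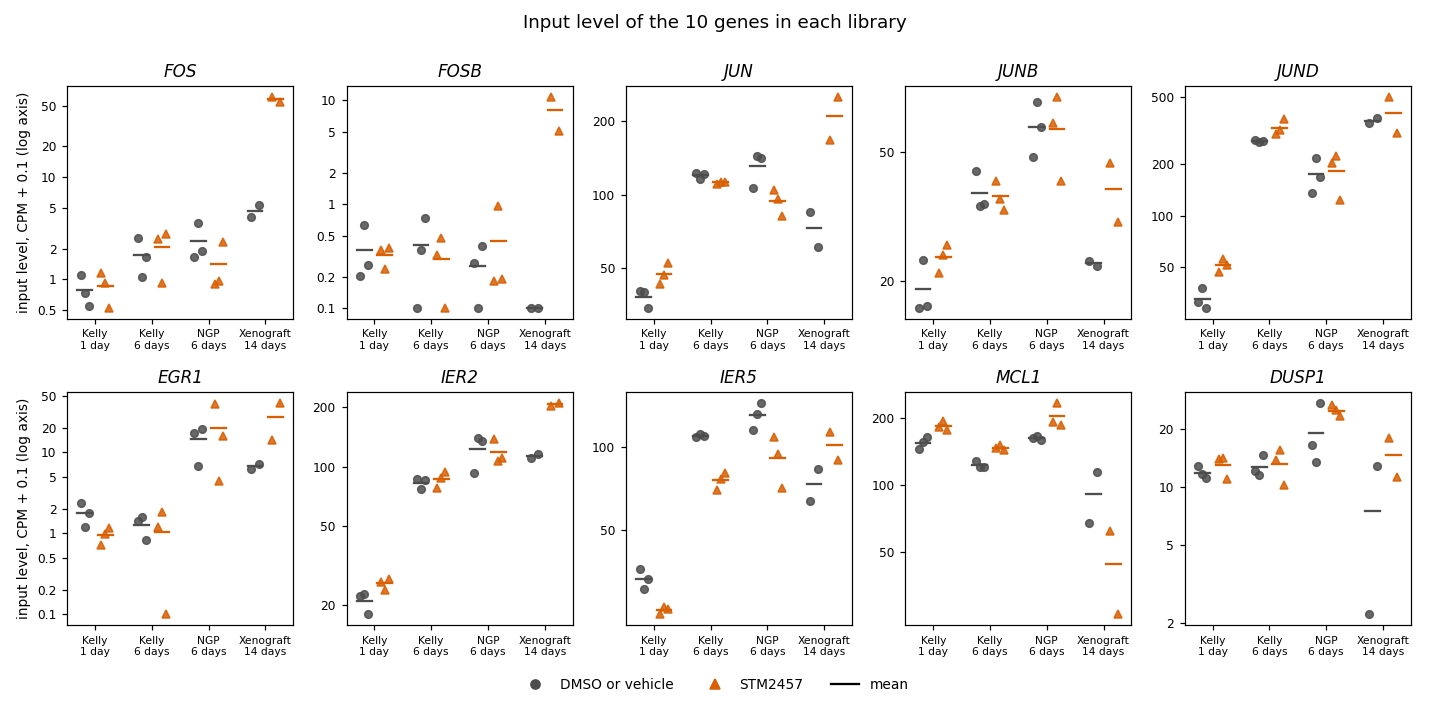
Input level of each of the 10 genes in CPM on a log axis, with 1 point per library for DMSO and STM2457 in the xenograft at 14 days, NGP at 6 days and Kelly at 1 and 6 days. FOS and FOSB stand out in the xenograft, where FOS is at 3.96 and 5.23 CPM with DMSO and at 61.1 and 54.3 CPM with STM2457.

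FOS, the partner that JUN proteins need for the classical AP-1 dimer, was scarce in every culture. Its DMSO inputs held 0.994, 0.64 and 0.451 CPM in Kelly at 1 day, 2.42, 0.963 and 1.56 CPM in Kelly at 6 days and 1.56, 3.47 and 1.79 CPM in NGP. With STM2457 the values were 1.05, 0.833 and 0.424 CPM, then 2.38, 0.82 and 2.7 CPM, then 0.808, 0.863 and 2.24 CPM. The 2 treatments overlapped in all 3 culture experiments, and the fitted log2 changes of 0.17, 0.11 and -0.75 had standard errors of 0.441, 0.483 and 0.863. In the tumours FOS stood at 3.96 and 5.23 CPM with DMSO (15 and 34 counts) and at 61.1 and 54.3 CPM with STM2457 (159 and 97 counts). Both treated tumours were far above both controls, by a log2 change of 3.65 ± 0.506 (SE), which is 12.5-fold. This did not pass the edgeR quasi-likelihood test after Benjamini-Hochberg adjustment over all genes (adjusted p = 0.211).

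FOSB, a close relative of FOS, was at 0 in both control tumours and at 10.8 and 5.03 CPM (28 and 9 counts) in the treated ones. Against a floor of 3 counts per library, which is 0.627 CPM here and covers counting error only, the treated mean of 7.9 CPM was at least 12.6-fold higher. The edgeR adjusted p was 0.511.

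JUN, the other founding AP-1 subunit, was higher with STM2457 in some experiments and lower in others. Kelly cells at 1 day held 40.1, 39.7 and 34.1 CPM with DMSO and 43.0, 46.8 and 52.1 CPM with STM2457. All 3 treated libraries were higher, and JUN rose by a log2 change of 0.33 ± 0.0831 (edgeR adjusted p = 0.0108). Without the 3rd STM2457 input the adjusted p was 0.0781. After 6 days in Kelly the level was 123, 116 and 122 CPM with DMSO and 111, 113 and 113 CPM with STM2457, so the treated libraries were all lower but by little (log2 change -0.12 ± 0.0613, adjusted p = 0.159). NGP gave 106, 144 and 142 CPM with DMSO and 104, 95.6 and 81.5 CPM with STM2457, again with every treated library lower (log2 change -0.47 ± 0.166, adjusted p = 0.119). In the tumours JUN was at 85.1 and 60.9 CPM with DMSO and at 167 and 253 CPM with STM2457. Both treated tumours lay above both controls, with a log2 change of 1.55 ± 0.293 and an edgeR adjusted p of 0.325.

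JUND, the JUN relative that is expressed without stimulation in most cells and opposes JUN in growth control, had the largest called rise of the members. At 1 day in Kelly it went from 31.0, 37.8 and 28.6 CPM to 46.5, 55.4 and 51.6 CPM, with no overlap and a log2 change of 0.67 ± 0.0962 (edgeR adjusted p = 0.000141). At 6 days in Kelly it went from 279, 272 and 273 CPM to 299.8, 318 and 369 CPM, also with no overlap, and rose by 0.23 ± 0.0741 on the log2 scale (adjusted p = 0.029). The call at 6 days was lost without any of 4 of the 6 libraries, with adjusted p up to 0.0991. In NGP the 2 treatments overlapped at 135, 219 and 169.6 CPM against 203, 224 and 123 CPM, and so they did in the tumours at 349.7 and 372 CPM against 499.8 and 305 CPM. JUNB, which like JUND is known to counter JUN, measured 16.4, 23.1 and 16.7 CPM with DMSO and 21.0, 24.0 and 25.7 CPM with STM2457 in Kelly at 1 day. The groups overlapped there and the change of 0.34 ± 0.124 missed the threshold (edgeR adjusted p = 0.0668), while without the 2nd DMSO input it passed at 0.00339. JUNB changes at 6 days were -0.042 in Kelly and -0.019 in NGP. In the tumours JUNB stood at 23.0 and 22.1 CPM with DMSO and at 46.1 and 30.2 CPM with STM2457, higher in both treated tumours (log2 change 0.78 ± 0.468, adjusted p = 0.689). Its gene shares 259 exonic bases with HOOK2, and fragments that lie on bases shared by both genes were not assigned.

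EGR1 was low in Kelly culture and higher in NGP. Kelly inputs at 1 day held 2.23, 1.1 and 1.68 CPM with DMSO and 0.624, 0.868 and 1.06 CPM with STM2457. All 3 treated libraries were lower, but on 19 to 65 counts the log2 change of -0.96 ± 0.347 did not pass (edgeR adjusted p = 0.0645). Kelly inputs at 6 days held 1.3, 1.49 and 0.734 CPM with DMSO and 1.08, 1.71 and 0 CPM with STM2457. NGP libraries held 17.4, 6.75 and 19.3 CPM with DMSO and 39.1, 4.32 and 15.8 CPM with STM2457. The treated and control libraries overlapped in both, and in NGP the spread between replicates exceeded the difference (log2 change 0.46 ± 0.457). In the tumours EGR1 was at 6.08 and 7.07 CPM with DMSO and at 14.2 and 40.8 CPM with STM2457. Both treated tumours were higher, though far apart from each other, at a log2 change of 2.08 ± 0.754 (edgeR adjusted p = 0.544).

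IER5, a regulator of heat shock factor and of phosphatase activity, fell in both Kelly culture experiments. At 1 day its level was 36.2, 30.6 and 33.2 CPM with DMSO and 24.8, 26.4 and 26.0 CPM with STM2457. All treated libraries were lower, at a log2 change of -0.36 ± 0.081 (edgeR adjusted p = 0.00497). At 6 days the level dropped from 108, 111 and 109 CPM to 69.9, 76.1 and 80.5 CPM, a log2 change of -0.57 ± 0.0702 (adjusted p = 1.9e-05) that kept its call without each of the 6 libraries in turn. NGP gave 115, 131 and 144 CPM with DMSO and 108, 94.4 and 70.8 CPM with STM2457, all lower, with a log2 change of -0.51 ± 0.172 that missed the threshold (adjusted p = 0.099). The tumours held 63.4 and 82.8 CPM with DMSO and 113 and 89.5 CPM with STM2457, higher in both treated tumours (log2 change 0.48 ± 0.284, adjusted p = 0.679).

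IER2, a nuclear protein induced together with FOS and JUN, rose slightly in Kelly at 1 day, from 22.2, 22.8 and 17.9 CPM to 26.1, 23.9 and 27.1 CPM. The groups did not overlap and the log2 change was 0.31 ± 0.0999 (edgeR adjusted p = 0.0419), but the call was lost without any of 4 of the 6 libraries, with adjusted p up to 0.156. At 6 days treated and control libraries overlapped, between 77.1 and 93.5 CPM in Kelly and between 93.2 and 139.7 CPM in NGP. In the tumours IER2 was at 111 and 116 CPM with DMSO and at 202 and 210.3 CPM with STM2457. The replicates of each group were close and both treated tumours were higher, by a log2 change of 0.88 ± 0.202 (edgeR adjusted p = 0.423).

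DUSP1 did not pass the test in any experiment. It measured between 10.9 and 14.0 CPM in Kelly at 1 day, between 10.1 and 15.5 CPM in Kelly at 6 days and between 13.3 and 27.1 CPM in NGP, with treated and control libraries mixed in each. The tumours held 2.11 and 12.8 CPM with DMSO and 17.7 and 11.2 CPM with STM2457, so the groups overlapped. The 2 controls differed from each other by more than the group means did (7.44 against 14.4 CPM).

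MCL1, the survival protein, was higher with STM2457 in all 3 culture experiments and lower in the treated tumours. It rose in Kelly at 1 day from 145, 157 and 165 CPM to 183, 195 and 178 CPM (log2 change 0.26 ± 0.0571, edgeR adjusted p = 0.00404). At 6 days in Kelly it rose from 129, 121 and 120.4 CPM to 147, 152 and 144 CPM (log2 change 0.24 ± 0.0612, adjusted p = 0.00877), a call lost without the 2nd DMSO input (adjusted p = 0.0505) or the 3rd (0.057). NGP had 163, 167 and 159.7 CPM with DMSO and 192, 235 and 186 CPM with STM2457 (log2 change 0.33 ± 0.149, adjusted p = 0.249). Treated libraries were higher without overlap in each of these experiments. The tumours held 67.9 and 115 CPM with DMSO and 62.3 and 26.3 CPM with STM2457, lower in both treated tumours and variable in each group (log2 change -1.02 ± 0.445, adjusted p = 0.577).

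Counted together, 4 of the 9 members tested in Kelly at 1 day rose (JUN, JUND, IER2 and MCL1), against 9.41% of 13246 genes, and 1 fell (IER5), against 8.06%. Their median log2 change was 0.26, and that of all genes was 0.0074. In Kelly at 6 days 2 of 9 rose (JUND and MCL1), against 11.9% of 12773 genes, and 1 fell (IER5), against 14.7%. The medians there were 0.021 and -0.0045. In NGP 0 of 9 were called, against 4.23% of 12289 genes, and 3 of the 9 (JUN, IER5 and MCL1) had an unadjusted p under 0.05. DESeq2 also called 0, and IER5 passed when genes of low counts were kept (adjusted p = 0.0481). The NGP medians were -0.019 and 0.01.

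In the xenograft 0 of 10 members were called, and so were 0 of 11329 genes (0.0%), with 968 genes at an unadjusted p under 0.05. FOSB, at 0 in both controls, passed the low-count filter only through the treated tumours and is left out of the counts that follow. Of the other 9 members, 5 (FOS, JUN, EGR1, IER2 and MCL1) had an unadjusted p under 0.05. Both treated tumours lay above both controls for 6 of them, FOS, JUN, JUNB, EGR1, IER2 and IER5, against 18.8% of genes, and below them for 1, MCL1, against 22.1%. The median log2 change of the 9 was 0.88, and that of all genes was -0.0059. Single libraries decided the calls: without the 1st DMSO tumour JUN was called, without the 2nd FOS, without the 1st treated tumour FOS, JUN, EGR1, IER2 and MCL1, and without the 2nd FOS, JUN and IER2. DESeq2 called 2 members (JUN and IER2) and gave FOS no adjusted p. On simulated counts with the spread of these tumours, the edgeR test recovered 9% of genes changed 2-fold and 46% of those changed 4-fold.

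**Figure D2:**
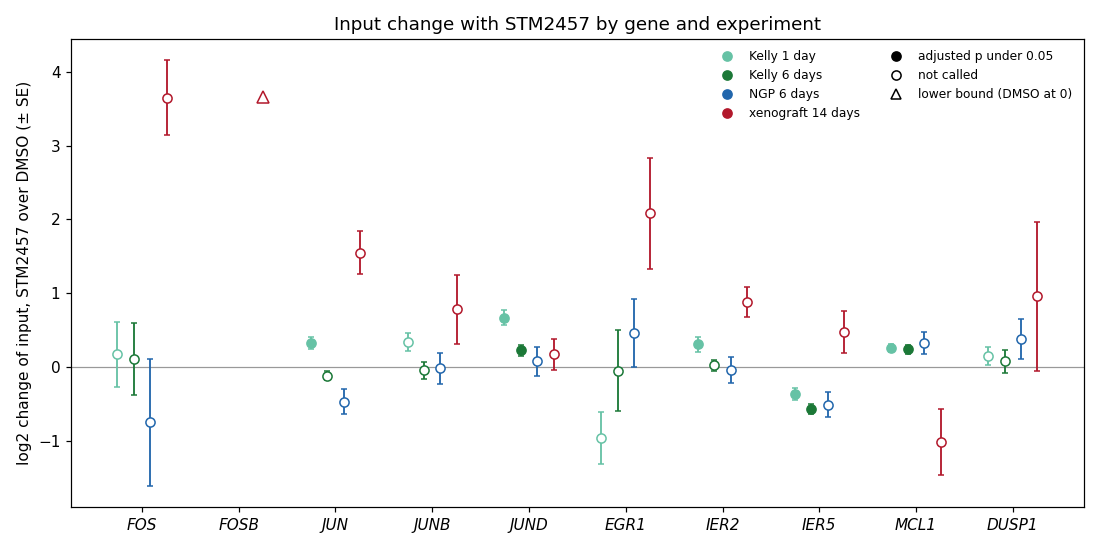
Log2 change of the input level with STM2457 against DMSO for each tested gene in the 4 experiments, with bars of 1 standard error. Filled points passed the edgeR test at an adjusted p under 0.05. FOSB has no point in the cultures, and its open triangle in the xenograft is a lower bound (3.66) without a bar. In Kelly at 1 day 4 genes pass above 0 and IER5 passes below 0, while in the xenograft most points lie above 0, their bars are long and 0 pass.

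The response of Kelly cells differed between the experiments at 1 and 6 days for JUN and JUND. These experiments were separate, so time and experiment cannot be told apart in this difference. The change at 6 days minus that at 1 day was -0.43 ± 0.103 on the log2 scale for JUN (edgeR interaction, adjusted p = 0.00893) and -0.42 ± 0.123 for JUND (adjusted p = 0.0347), that is 2 of 9 members lower at 6 days, against 4.73% of 13773 genes. The JUND call was lost without any of 9 of the 12 inputs, with adjusted p up to 0.118. IER5 and MCL1 responses differed by -0.19 ± 0.103 and -0.0079 ± 0.0858. Between Kelly and NGP at 6 days 0 of 9 responses were called different, against 1.36% of 13448 genes, by edgeR and by DESeq2. JUN, with a difference of 0.37 ± 0.173, was the 1 member at an unadjusted p under 0.05, and the IER5 responses differed by -0.029 ± 0.191.

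Control levels of several members were also unequal between experiments. In Kelly, DMSO inputs at 6 days against those at 1 day were higher without overlap for 5 members, JUND 8.47-fold, IER2 3.96-fold, IER5 3.28-fold, JUN 3.17-fold and JUNB 1.98-fold, against 40.7% of 9827 genes, and lower for MCL1 at 0.793-fold, against 45.7%. The experiments at 1 and 6 days were separate, so day and experiment cannot be told apart, and no test was made. GC content moved with this difference: the median log2 ratio of 6 days over 1 day was -0.67 for genes under 40% GC and 0.81 for those of at least 60%, and JUND (69.9% GC), JUNB (64.9%) and IER2 (63.0%) belong to the latter. The part of GC content in the members' differences was not tested. Against NGP at the same time, Kelly DMSO inputs at 6 days had more JUND (log2 difference 0.68 ± 0.146), against 31.7% of 12940 genes called higher. They had less EGR1 (-3.61 ± 0.452), JUNB (-0.66 ± 0.162), IER2 (-0.54 ± 0.145) and MCL1 (-0.39 ± 0.0796), against 29.1% called lower, with edgeR adjusted p between 6.1e-05 and 0.00793 for the 5. Kelly and NGP were separate experiments too, so line and experiment cannot be told apart in any comparison of the 2. In the order of the control groups, FOS and JUND were highest in the tumours, FOSB in Kelly at 6 days and the other 7 in NGP. The ranges of NGP and the next group overlapped for JUN, EGR1, IER2, MCL1 and DUSP1, and not for JUNB and IER5. FOSB ranges overlapped between all neighbours in the order, so its order is not resolved.

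RIP over input describes how far the antibody enriched a gene's fragments. It is relative to the other genes of the same libraries, so a loss of m6A common to all genes would not appear in it. By the count headers, input and RIP libraries of Kelly at 1 day stood in different folders, unlike those of the other experiments. What the folders stand for is not stated, so library type and folder cannot be told apart there. In Kelly at 1 day with DMSO, 7 of 10 members were enriched, against 33.3% of 13669 genes. JUNB had a log2 ratio of 3.14 ± 0.175, IER5 3.12 ± 0.1, JUN 2.76 ± 0.108, JUND 2.34 ± 0.213, IER2 1.97 ± 0.215, DUSP1 1.66 ± 0.188 and MCL1 1.57 ± 0.0671. In the same order these 7 held 1, 6, 5, 2, 6, 4 and 7 copies of GGACT, in transcripts of 1830 to 4201 bases. Whether copies go with the ratio was not tested. The edgeR adjusted p of these 7 was at most 3.76e-06, and the members' median of 1.9 stood beside a median of -0.066 for all genes. By library, the JUNB ratio was 3.43, 2.82 and 2.97 and the IER5 ratio 3.23, 3.14 and 2.9, at or above the 97.3 percentile of genes of at least 10 CPM in each. By 6 days in Kelly 8 of 10 members were enriched, against 28.8% of 13324 genes, led by IER5 at 3.76 ± 0.238, which is 13.6-fold. EGR1 followed at 2.76 ± 0.96, a call lost without any of 4 of 12 libraries, with adjusted p up to 0.102. FOS was not enriched, at -0.13 ± 0.919 on 6 to 24 RIP counts a library.

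In NGP fewer members passed. JUN (1.46 ± 0.222), IER5 (1.44 ± 0.305), MCL1 (0.85 ± 0.184) and IER2 (0.69 ± 0.248) were enriched, 4 of 9 members against 29.0% of 13088 genes. The IER2 call was lost without the 1st DMSO input or the 1st DMSO RIP library. JUND stood at -0.41 ± 0.273 and JUNB at 0.21 ± 0.278. Without the 1st DMSO RIP library JUND was called depleted at -0.9 (edgeR adjusted p = 0.00109), and IER5 kept its call at 0.84. Over all genes the NGP ratio moved with GC content, from a median of 0.8 under 40% GC to -1.05 at 60% or more. JUND, JUNB and IER2 belong to the latter class, and the part of GC content in their ratios was not tested. By library, the NGP ratio of JUND was 0.22, -0.92 and -0.85, while in Kelly at 6 days it was 2.83, 2.45 and 2.7, so the 2 experiments did not overlap. In the DMSO tumours 3 of 10 members passed, IER5 (3.48 ± 0.767), JUN (2.95 ± 0.552) and IER2 (2.27 ± 0.529), against 1.61% of 12626 genes, each call being lost without any of 6 of the 8 libraries. The tumour ratios of JUNB (2.43 and 3.13) and JUND (2.1 and 2.4) were as high by library but missed the threshold.

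**Figure D3:**
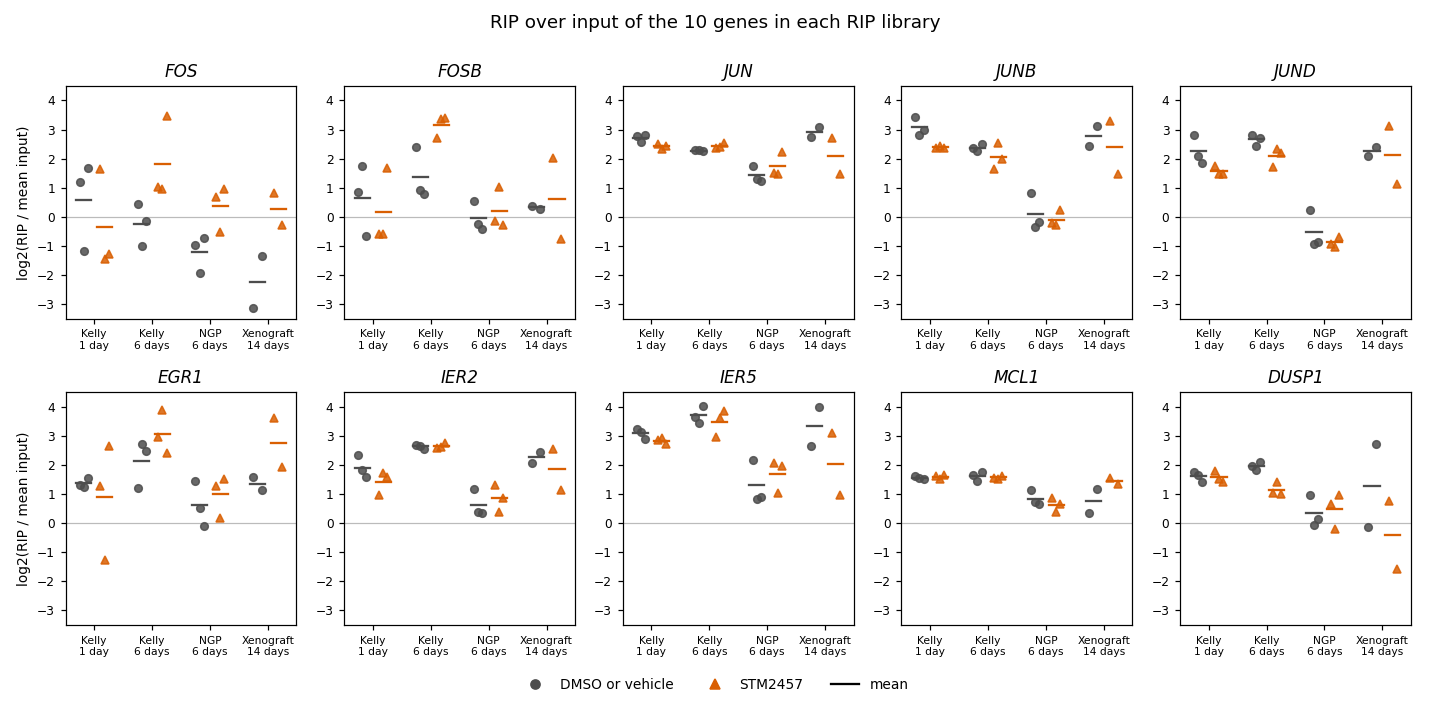
Log2 ratio of RIP over the mean input of its group for each gene, with 1 point per RIP library for DMSO and STM2457 in the 4 experiments. JUN, JUNB, JUND, IER2 and IER5 lie well above 0 in the Kelly experiments, and JUND lies at 0.22, -0.92 and -0.85 in the NGP DMSO libraries.

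The difference between Kelly at 6 days and NGP was tested directly, with line and experiment confounded as for the levels. RIP over input with DMSO was higher in Kelly at 6 days than in NGP for 8 of 9 members, against 22.2% of 13684 genes. The log2 difference was 3.30 ± 0.397 for JUND, 2.50 ± 0.423 for IER5, 2.41 ± 0.39 for JUNB, 2.16 ± 0.321 for IER2, 2.16 ± 0.774 for EGR1, 1.82 ± 0.45 for DUSP1, 1.03 ± 0.251 for JUN and 0.99 ± 0.23 for MCL1, with edgeR adjusted p between 1.87e-05 and 0.0329. The EGR1 call was lost without any of 7 of the 12 libraries. Over all genes the same difference moved with GC content, from a median of -1.23 under 40% GC, through -0.56 and 0.41, to 1.4 at 60% GC or more. The median of the GC class was 1.4 for JUND, JUNB and IER2, 0.41 for JUN, EGR1 and DUSP1, and -0.56 for IER5 and MCL1. The part of GC content in these differences was not tested.

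**Figure D4:**
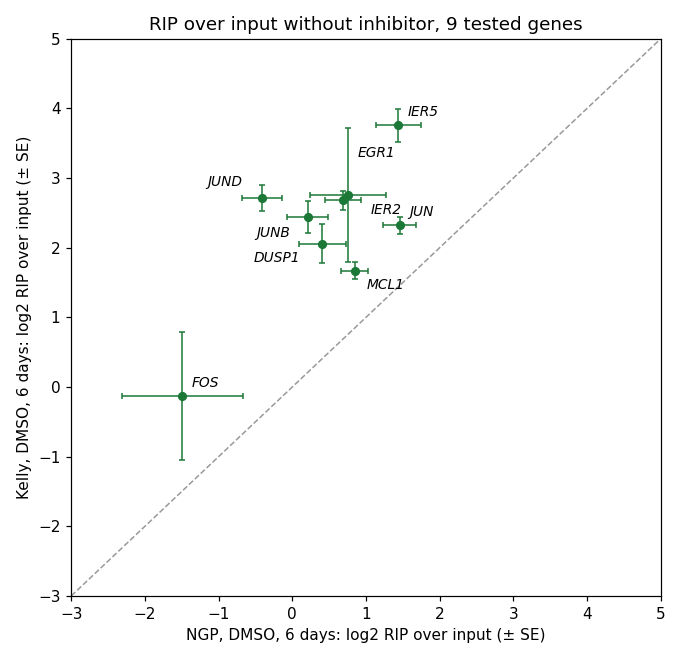
Log2 RIP over input with DMSO in Kelly at 6 days and in NGP at 6 days for each gene, with bars of 1 standard error from the edgeR fits. JUND is at 2.71 in Kelly and at -0.41 in NGP, and JUN is at 2.32 and 1.46.

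The change of RIP over input with STM2457 passed the threshold for 1 member, a share close to that of all genes. In Kelly at 1 day JUNB fell by 0.85 on the log2 scale (SE 0.23, edgeR adjusted p = 0.024), 1 of 10 members against 7.62% of 13669 genes called lower. Its ratio was 3.43, 2.82 and 2.97 with DMSO and 2.36, 2.45 and 2.37 with STM2457, without overlap. Without any of 6 of the 12 libraries the call was lost, with adjusted p up to 0.0696. JUND (-0.88 ± 0.288, adjusted p = 0.0546), JUN (-0.43 ± 0.143, 0.0573) and IER5 (-0.39 ± 0.132, 0.0598) came close, and JUN and JUND ratios were lower in all 3 treated libraries. The share of all genes without overlap was not counted for these ratios. By size, the changes of JUNB and JUND lay at the 14.6 and 13.8 percentiles of all genes tested. MCL1, with the highest counts, had a change of -0.088 ± 0.0928. In this comparison too GC content moved with the values, with medians of 0.27 for genes under 40% GC and -0.29 for those of at least 60%, and its part was not tested.

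At 6 days in Kelly 0 of 10 changes of RIP over input passed, against 2.06% of 13324 genes, and JUND and DUSP1 had an unadjusted p under 0.05. FOS had 2.79 ± 1.31 on few counts, DUSP1 -0.85 ± 0.374 and JUND -0.59 ± 0.251, all at an adjusted p of at least 0.265. NGP had 0 of 9 members and 0 of 13088 genes called (0.0%), with 764 genes and 0 members at an unadjusted p under 0.05, and the members ranged from -0.43 for JUND to 2.14 for FOS. The xenograft had 0 of 10 members and 0 of 12626 genes called (0.0%), with 809 genes and 0 members at an unadjusted p under 0.05, and its members ranged from -1.98 for DUSP1 to 3.05 for FOS. DESeq2 called 0 members in each of these 3 experiments. In the 2 treated tumours the ratios differed widely, for example 3.11 and 1.14 for JUND and 3.11 and 0.96 for IER5.

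The scale of these changes depended on the reference. When the 13 mRNAs of the mitochondrial genome were held constant in place of the bulk of genes, the median change of all genes in Kelly at 1 day went from -0.028 to -1.46 and 7 of 10 members fell, against 60.9% of genes. JUNB was at -2.29, JUND at -2.34, IER2 at -2.09, JUN at -1.87, IER5 at -1.84, DUSP1 at -1.61 and MCL1 at -1.52, with a median of -1.94 over the members. In Kelly at 6 days the median of all genes was -2.2 and 6 of 10 members fell, against 29.5%, with a median of -2.53. JUN at 6 days turned from 0.14 to -2.31 and EGR1 from 0.99 to -1.16. In NGP and in the xenograft 0 members were called on this reference, against 0.00764% and 0.0% of genes called lower.

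Other genes of the same pathways were looked up in fixed lists. Of 38 other immediate early and AP-1 genes, 31 were tested in Kelly at 1 day, and 4 rose and 1 fell, against 9.41% and 8.06% of all genes. NR4A3 (log2 change 0.57) and RHOB (0.5) rose and ARC, a synaptic immediate early gene, fell by 0.53. In Kelly at 6 days 4 of 27 rose and 10 fell, against 11.9% and 14.7% of all genes, with a list median of -0.17. FOSL2, an AP-1 subunit of the FOS family, went from 42.5 ± 1.01 to 73.9 ± 6.48 CPM (SD, n = 3) with a log2 change of 0.76 (edgeR adjusted p = 6.71e-06). ATF3, a stress-induced bZIP factor, went from 45.7 ± 2.01 to 16.0 ± 0.275 CPM with a log2 change of -1.54 (adjusted p = 1.78e-08), and JDP2, which dimerises with JUN, fell by 1.15. In NGP 3 of 27 rose, against 2.07% of all genes, and FOSL2 was among them with 20.7 ± 1.24 CPM against 70.7 ± 6.07 CPM and a log2 change of 1.78 (adjusted p = 2.14e-06). PLK2 rose by 2.24 and JDP2 by 1.2 there, and 1 gene, ARC, fell by 1.02, against 2.16% of all genes. In the xenograft 0 of 25 were called, with a median of 0.52, and both treated tumours were higher for 12 and lower for 5, against 18.8% and 22.1% of all genes.

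Lists around the members' regulators were counted in the same way, and their counts stand against the same shares of all genes, 9.41% called higher and 8.06% lower in Kelly at 1 day and 11.9% and 14.7% at 6 days. Among 17 transcription factors, coactivators and kinases acting on immediate early promoters, 2 rose in Kelly at 1 day. At 6 days the list median was 0.17, with 6 called higher and 2 lower. ELK3, a partner of serum response factor, rose by 0.44 at 1 day and 0.63 at 6 days, and SRF itself rose by 0.4 at 6 days. Of 23 genes of the ERK pathway and its feedback, 3 rose and 4 fell in Kelly at 1 day. At 6 days 7 of them fell, SPRY4 at -1.08 and ETV4 at -0.75 among them, and 1 rose. Of 20 proteins that bind AU-rich elements or remove poly(A) tails, 5 rose and 2 fell at 6 days. ELAVL4 (0.49), TIA1 (0.37) and ZFP36L2 (0.33) were among the rises, and PAN2 (-0.5) and HNRNPD (-0.34) were the falls. Of the 16 relatives of MCL1 in the BCL2 family, 13 were tested at 6 days, where 3 rose and 3 fell. BCL2, the founding survival protein, went from 8.71 ± 1.41 to 22.2 ± 1.73 CPM in Kelly at 6 days (log2 change 1.32, edgeR adjusted p = 6.14e-06) and from 9.06 ± 1.65 to 23.1 ± 5.0 CPM in NGP (log2 change 1.34, adjusted p = 0.0083). Death-promoting members went both ways in Kelly at 6 days. HRK (log2 change -1.42), PMAIP1 (-0.39) and BAX (-0.37) fell, while BOK (0.73) and BMF (0.63) rose. In the xenograft 0 genes of any of these lists were called by edgeR, as of all genes.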

How the data were processed

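RNA was measured in 22 input and 22 RIP libraries. Groups follow the labels' line, time, agent and antibody step. Raw fragment counts per gene were deposited by the authors, with 1 table for each library. Per the file headers these counts were made with featureCounts (Subread 1.5.3) on exons summed to gene names, from the protein-coding genes of GENCODE 33 on GRCh38. No strand option is named there, so antisense overlaps were not separated. HISAT2 2.1.0, Trimmomatic 0.36 and FastQC 0.11.5 are named per the submitters' processing notes. Spike-in RNAs are not analysed here, and some marker genes are not reported here.

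Tests were edgeR 4.0.16 quasi-likelihood tests (R 4.3.3) on TMM-scaled counts. Genes were kept by filterByExpr at a minimum count of 10 and total of 15, and p-values were adjusted by Benjamini-Hochberg over all genes tested, two-sided, called at 0.05. Each experiment was fitted alone, and a difference between experiments was an interaction over the libraries of both. CPM used TMM library sizes. Per library, RIP was divided by its group's mean input on the log2 scale, with 0.5 CPM added. Tried as alternatives were DESeq2 1.42.0, RLE size factors, no low-count filter, a replicate block, all 22 inputs in 1 fit, a mitochondrial reference, plain library totals and the removal of 1 library at a time. A library left alone in its group was assumed to vary like the other groups. The members, lists and rules were chosen with earlier results of these data known. Named beside the 10 members were, per list and input comparison, the up to 3 largest called rises and falls of at least 2 log2 CPM on average without overlap, and the 5 genes whose input profiles were most like the members'. Libraries were treated as unpaired, since the labels do not say that replicate numbers pair them and the deviations of same-numbered libraries did not correlate in every pair. Among 40 replicate pairs the smallest chi-square per degree of freedom was 2.73, so none was counted as a repeat. On simulated counts, genes changed 2-fold were recovered by the input test in 9% of cases in the xenograft, 59% in NGP, and 100% and 98% in Kelly at 1 and 6 days. Sequences were read from GENCODE 44, in which the counted exons of the members had identical coordinates except 1 of 20 in FOSB and 2 of 10 in MCL1, and from the RefSeq promoter table.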

Additional observations from a re-analysis of the deposited data

Results flagged for a closer look

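In Kelly cells the input response at 6 days minus that at 1 day was called by the edgeR interaction test for JUN (log2 difference -0.43) and for JUND (-0.42).

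RIP over input with DMSO was called higher in Kelly at 6 days than in NGP for JUN (log2 difference 1.03), JUNB (2.41), JUND (3.30), EGR1 (2.16), IER2 (2.16), IER5 (2.50), MCL1 (0.99) and DUSP1 (1.82).

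Some input responses had every treated library on one side of the controls in one experiment and on the other side in another. These differences between experiments were not tested. In the xenograft both treated tumours were higher for 18.8% of all genes and lower for 22.1%, so such a side is common there. The share of all genes that change side between experiments was not counted. For JUN the change in NGP minus that in Kelly at 1 day was -0.80, and the change in the xenograft exceeded that in Kelly at 6 days by 1.67 and that in NGP by 2.02. For EGR1 the xenograft change minus that in Kelly at 1 day was 3.04. For IER5 the xenograft change exceeded those in Kelly at 1 day, Kelly at 6 days and NGP by 0.84, 1.05 and 0.99. For MCL1 the xenograft change minus those in the same 3 experiments was -1.28, -1.26 and -1.35.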

How the results depend on the processing

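Across alternatives, 1696 of the single-gene values kept their direction and side of the threshold, 69 lost a call, 67 gained one and 83 changed sign; the cause was not tested. Of 80 mean levels, 29 moved by more than 1 SD on plain library totals. Members called for the input change with all inputs in 1 fit were 5 in the xenograft, 2 in NGP, and 0 and 1 in Kelly at 1 and 6 days. Without a low-count filter they were 1 in NGP, 3 in the xenograft and 7 in Kelly at 1 day (5 with it), and DESeq2 called 2 in the xenograft. For RIP over input in the xenograft, 5 were called by DESeq2 and 5 without the filter. For the change of RIP over input in Kelly, DESeq2 called 2 at 1 day and the unfiltered fit 0, and on the mitochondrial reference 7 were called at 1 day and 6 at 6 days. The MCL1 change at 1 day was 0.0022 with RLE factors, 0.0024 with DESeq2 and 0.046 unfiltered, and that of EGR1 was -1.11 on the mitochondrial reference. At 6 days that reference gave -2.31 for JUN and -1.16 for EGR1, and the unfiltered IER2 value was 0.013. The same reference gave, in NGP, -0.046 for JUN, -0.091 for EGR1, -0.16 for IER2, -0.019 for IER5 and -0.21 for DUSP1, and in the xenograft -0.074 for JUND and -0.035 for MCL1. The MCL1 response in Kelly at 6 days minus that at 1 day was 0.0046 with RLE factors, 0.0048 with DESeq2 and 0.058 unfiltered.

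The labels do not say that the replicate numbers pair libraries. With a replicate block 4 input changes were called in Kelly at 1 day (5 without it, IER2 being the difference), 1 input change was called in NGP and 2 in the xenograft, 1 member was enriched in the xenograft, and the EGR1 change of RIP over input in Kelly at 1 day was -0.2. Crossing the numbers in the xenograft, an alternative chosen after seeing the data, gave 3 enriched members and 0 changed.

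Leaving out each library in turn gave 3 to 7 called input changes in Kelly at 1 day, 1 to 3 in Kelly at 6 days and 1 to 5 in the xenograft. It gave 0 to 4 called changes of RIP over input in Kelly at 1 day, 0 to 5 enriched members in the xenograft, and 1 to 3 called differences between the Kelly responses. Input changes that crossed 0 were those of FOS in Kelly at 1 day (-0.13 to 0.51) and, in Kelly at 6 days, of FOS (-0.23 to 0.59), JUNB (-0.12 to 0.081), EGR1 (-0.61 to 0.22), IER2 (-0.029 to 0.11) and DUSP1 (-0.049 to 0.18). In NGP they were those of JUNB (-0.21 to 0.19), JUND (-0.09 to 0.3), EGR1 (-0.5 to 0.91) and IER2 (-0.21 to 0.066), and in the xenograft that of JUND (-0.2 to 0.46). RIP over input crossed 0 for FOS in Kelly at 6 days (-0.7 to 0.25), JUNB in NGP (-0.27 to 0.43) and DUSP1 in the xenograft (-0.18 to 3.77). Its change crossed 0 in Kelly at 1 day for FOSB (-7.66 to 0.53) and EGR1 (-0.98 to 0.9), in Kelly at 6 days for JUN (-0.14 to 0.17), IER2 (-0.31 to 0.07) and IER5 (-0.42 to 0.0065), in NGP for JUNB (-0.49 to 0.22), JUND (-0.67 to 0.059), EGR1 (-0.11 to 1.29), IER2 (-0.014 to 0.56) and DUSP1 (-0.21 to 0.57), and in the xenograft for JUNB (-1.35 to 0.46), JUND (-1.13 to 0.84), IER2 (-1.15 to 0.27) and DUSP1 (-3.79 to 0.16). Among the response differences given, MCL1 between the Kelly times (-0.054 to 0.072) and IER5 between Kelly and NGP (-0.17 to 0.13) crossed 0. FOS, FOSB and EGR1 rest on few counts in culture, and 2 tumours a group limit the xenograft.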

Other observations

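The genes whose input profiles were most like the median of the members over the 22 input libraries, each experiment centred on its own mean, were NR4A1 (r = 0.871), ECI1 (0.855), SEZ6L2 (0.853), HSPA1A (0.849) and TMEM119 (0.846). These are descriptions over libraries that share experiments and depth. Without the 4 xenograft inputs the values were 0.41, 0.6, 0.54, 0.44 and 0.83 over 18 libraries. NR4A1, an immediate early nuclear receptor, stood at 46.8 and 55.3 CPM in the control tumours and at 228 and 188 CPM in the treated ones. In Kelly at 6 days it went the other way, with every treated library lower. It held 56.0, 55.8 and 53.2 CPM there with DMSO and 39.2, 46.2 and 48.2 CPM with STM2457. Treated and control libraries overlapped in Kelly at 1 day, between 32.8 and 39.5 CPM, and in NGP, between 19.9 and 44.0 CPM.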
